A study of Homo sapiens with 16 samples.

Results

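The regions described here carried a peak of dimethylated lysine 9 of histone H3 (H3K9me2) in both replicates of MDA-MB-231 and in neither replicate of MCF-10A, and overlapped no peak of trimethylated lysine 27 (H3K27me3) of MDA-MB-231. They were chosen by merging the autosomal H3K9me2 peaks of the 4 libraries wherever these overlapped by at least 1 bp, which gave 17981 regions. Of these, 1653 had a peak in both MDA-MB-231 libraries alone, and 773 of the 1653 (46.8%) were free of H3K27me3 in both MDA-MB-231 lists. The 773 made up 4.30% of all merged regions and spanned 2.05 Mb. The peaks that chose them are those of H3K9me2 in both lines and of H3K27me3 in MDA-MB-231, so these values are given as a description, with no test. H3K4me3 in both lines and H3K27me3 in MCF-10A played no part in the choice.

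The study holds 16 chromatin immunoprecipitation and sequencing (ChIP-seq) samples: 12 immunoprecipitates of 3 histone marks, each with its own peak list, and 4 inputs that were not analysed here. MCF-10A is a non-tumorigenic breast epithelial line, given in the labels as luminal ductal cells, and MDA-MB-231 is a breast cancer line derived from a metastatic site. Both came from stocks kept in the laboratory and were taken as subconfluent cultures without any treatment named in the labels, with 2 biological replicates per mark and line. The labels do not say whether the replicates were separate cultures, so p-values measure only the spread between these samples, and each line is 1 stock and not a sample of its tumour or tissue type.

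H3K9me2 is laid down mainly by the methyltransferases G9a and GLP and is found over silenced chromatin, often in broad domains between and within inactive genes. H3K27me3 is laid down by the Polycomb repressive complex PRC2 and marks silenced developmental genes, also as broad domains in differentiated and cancer cells. H3K4me3 marks the start sites of active and poised genes. The repressive marks can lie over the same genes or over separate stretches. Among the regions with H3K9me2 in both MDA-MB-231 lists and neither MCF-10A list, the 773 are those not called for H3K27me3 in MDA-MB-231.

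The H3K9me2 lists held 10418 and 8701 autosomal peaks in MCF-10A (replicates 1 and 2) and 6086 and 4980 in MDA-MB-231. One H3K27me3 library stood apart: MDA-MB-231 replicate 1 held 8408 peaks, beside 30238 in replicate 2 and 28393 and 28371 in MCF-10A. The H3K4me3 lists held between 15015 and 16174 peaks. No list gives read counts, so the depth behind a peak is unknown and a missing peak can be a weak one. The short H3K27me3 list bears on who is a member: of the 880 regions that H3K27me3 removed, 486 were removed by replicate 2 alone, 352 by both and 42 by replicate 1 alone. Without replicate 2 of that mark the same rule gave 1259 regions. With a single MDA-MB-231 H3K9me2 list it gave 1604 (without replicate 1) and 2037 (without replicate 2).

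The regions were of middling score, and their median width lay just above the upper quartile of all merged regions (2348 bp). The whole MDA-MB-231 H3K9me2 lists also held wider peaks (medians 2200.5 and 1873.5 bp) than those of MCF-10A (1606 and 1577 bp). By the rule a member joins peaks of both MDA-MB-231 lists, whereas a merged region can be a single peak. The members' width ran from 895 to 13811 bp with a median of 2354 bp (interquartile range 1891 to 3035). The median was 2718 bp for the 880 regions with H3K27me3 and 2840 bp for the 959 regions with H3K9me2 in all 4 libraries. It was 1798 bp for the MCF-10A-only regions without H3K27me3 and 1788 bp for all merged regions. The authors' score of the H3K9me2 peak, which is at least 50 in every list and whose scale no source used here states, ran from 50.04 to 205.18 in replicate 1 (median 65.51) and from 50.04 to 377.08 in replicate 2 (median 65.62). The median within-list percentile of that score was 51.9 and 52.6, so the typical member lay near the middle of its own list. In the 880 regions with H3K27me3 it was 68.6 and 60.9, and in the 959 shared regions 77.7 and 75.3. A score of at least 100 in both replicates was reached by 36 of the 773 (4.66%), by 92 of the 880 (10.5%) and by 224 of the 959 (23.4%).

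Within the members, most peaks of both replicates lay in the same spot, which the rule favours since it asks for a peak in both lists. With a peak in either MDA-MB-231 list the rule gave 2764 regions in place of 773. The median share of a region's covered bases found in both lists was 84.5% (interquartile range 68.5% to 91.0%). It was 80.3% in the 880 regions with H3K27me3 and 85.9% in the 959 shared regions. Of the 773, 753 held a single peak in each list. Only 5 regions shared under 10% of their covered bases. Replicate 1 covered a median of 2213 bp and replicate 2 one of 1936 bp, and the peak was wider in replicate 1 in 72.8% of regions.

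**Figure D1:**
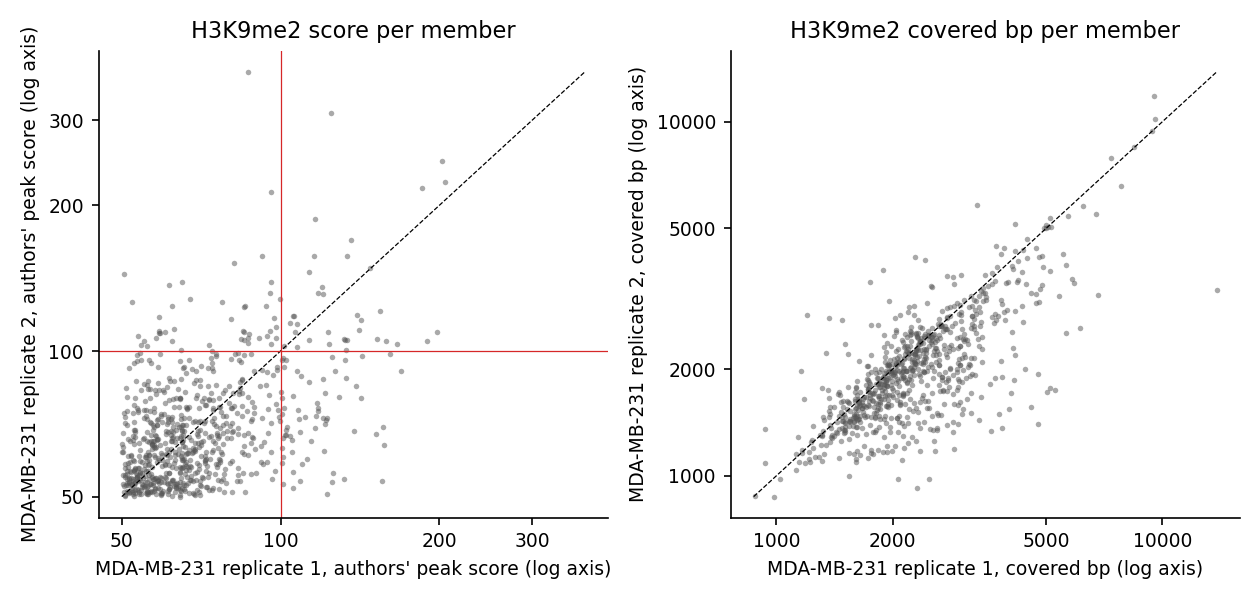
Each point is 1 of the 773 regions; the left panel plots the authors' H3K9me2 peak score of MDA-MB-231 replicate 1 against replicate 2, with lines at 100, and the right panel the bp covered by peaks in each replicate, all on log axes with a dashed line of equality. Most points lie in the lower left corner, below a score of 100 in both replicates, and the point far to the right of the widths is the widest region, covered over 13811 bp in replicate 1 and 3356 bp in replicate 2.

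The region highest in both lists, ranked by the lower of its within-list percentiles, was chr7:144059444-144065129 (hg19, as are all positions), with scores of 205.18 and 223.00 in replicates 1 and 2. The next were chr16:16456350-16464416 with 202.48 and 246.72, and chr20:62446120-62447893 with 185.43 and 216.88. At chr3:195510471-195514091 the scores were 147.64 and 148.22, and an MCF-10A H3K9me2 peak lay 0.780 kb away. The other 6 of the top 10 were chr6:39868472-39872681 (135.83 and 169.32), chr6:38128296-38132194 (133.68 and 156.92), chr3:52336215-52341612 (154.04 and 120.98), chr14:77708155-77711991 (139.39 and 118.89), chr19:36764888-36769985 (124.58 and 310.80) and chr6:35197501-35202295 (142.32 and 115.71). Chromosome 6 gave 3 of the 10. None of them overlapped an H3K4me3 peak of either line. Only 7 of all members (0.906%) did, so this absence does not set the top 10 apart.

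The widest regions differed in how far the replicates bore them out. At chr6:40243163-40256973 (13811 bp) replicate 1 covered the whole region and replicate 2 covered 3356 bp, with scores of 161.52 and 98.76. The lists were closer at chr7:56882689-56894774 (12086 bp), covered over 9499 and 11780 bp, and at chr19:37779690-37789882 (10193 bp), covered over 9550 and 10193 bp. The latter had the highest score of any member, 377.08 in replicate 2, beside 86.60 in replicate 1. At chr9:68408343-68417756 (9414 bp) both replicates covered 9412 bp. At chr17:21322543-21331502 (8960 bp) they covered 8445 and 8481 bp, and an MCF-10A H3K27me3 peak of replicate 2 lay over 1045 bp of it.

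The line between members and excluded regions was thin on both sides. The members nearest to an H3K27me3 peak of MDA-MB-231 were chr4:8709799-8713692 at 95 bp, chr11:116459584-116461422 at 107 bp and chr6:33767476-33770640 at 119 bp. The excluded regions with the least overlap were chr17:77133431-77136670 with 23 bp, chr20:59505073-59507511 with 25 bp and chr11:1422930-1424949 with 131 bp. For most excluded regions the overlap was large. With the peaks of both replicates joined, its median was 44.9% of the region, it reached at least 50% in 376 of the 880, and it was under 10% in 18. Counting a region as excluded only where a single replicate covered at least 50% of its length gave 1334 regions in place of 773.

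Many members had H3K27me3 nearby. The median distance from a member to the nearest MDA-MB-231 H3K27me3 peak of either replicate was 12.1 kb (50.6 kb to the short list of replicate 1 and 14.2 kb to that of replicate 2). Of the 773, 357 (46.2%) had such a peak within 10 kb and 59 within 1 kb. Per list, 20.4% of members were within 10 kb of a replicate 1 peak and 43.5% of a replicate 2 peak. Over all merged regions the shares were 20.6% and 34.8%, which include the 7.54% and 18.4% that overlapped such a peak. The rule bars overlap among the members, so these shares are not like for like. A far group also existed: 150 members (19.4%) had none within 100 kb and 24 had none within 1 Mb, the farthest being 17045 kb away. MCF-10A H3K9me2 was farther off, at a median of 57.5 kb, and lay within 10 kb of 146 members (18.9%).

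The members were unevenly spread over the autosomes. Chromosome 20 held 109 (14.1%), chromosome 11 held 77 (9.96%) and chromosome 10 held 75 (9.70%), which came to 261 members or 33.8%. The same 3 chromosomes held 41.8% of the 880 regions with H3K27me3, 20.8% of the regions shared by both lines, 6.12% of the MCF-10A-only regions without H3K27me3, and 16.9% of all merged regions. The fewest members lay on chromosome 22 with 1 and on chromosomes 13 and 16 with 4 each.

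The whole MDA-MB-231 lists of both repressive marks leaned to chromosome 20 in the same way. Chromosome 20 gave 11.8% and 11.3% of all MDA-MB-231 H3K9me2 peaks and 1.99% and 1.82% of those of MCF-10A. For H3K27me3 it gave 12.5% and 10.3% in MDA-MB-231 and 4.62% and 4.72% in MCF-10A. For H3K4me3 its share was 2.60% and 2.62% in MDA-MB-231 and 2.58% and 2.49% in MCF-10A. So the replicates of a line were close to each other and the lines far apart for both repressive marks, while for the promoter mark all 4 lists were close. Chromosome 16 went the other way for H3K9me2, with 0.345% and 0.522% of the MDA-MB-231 peaks and 6.02% and 6.34% of those of MCF-10A.

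**Figure D2:**
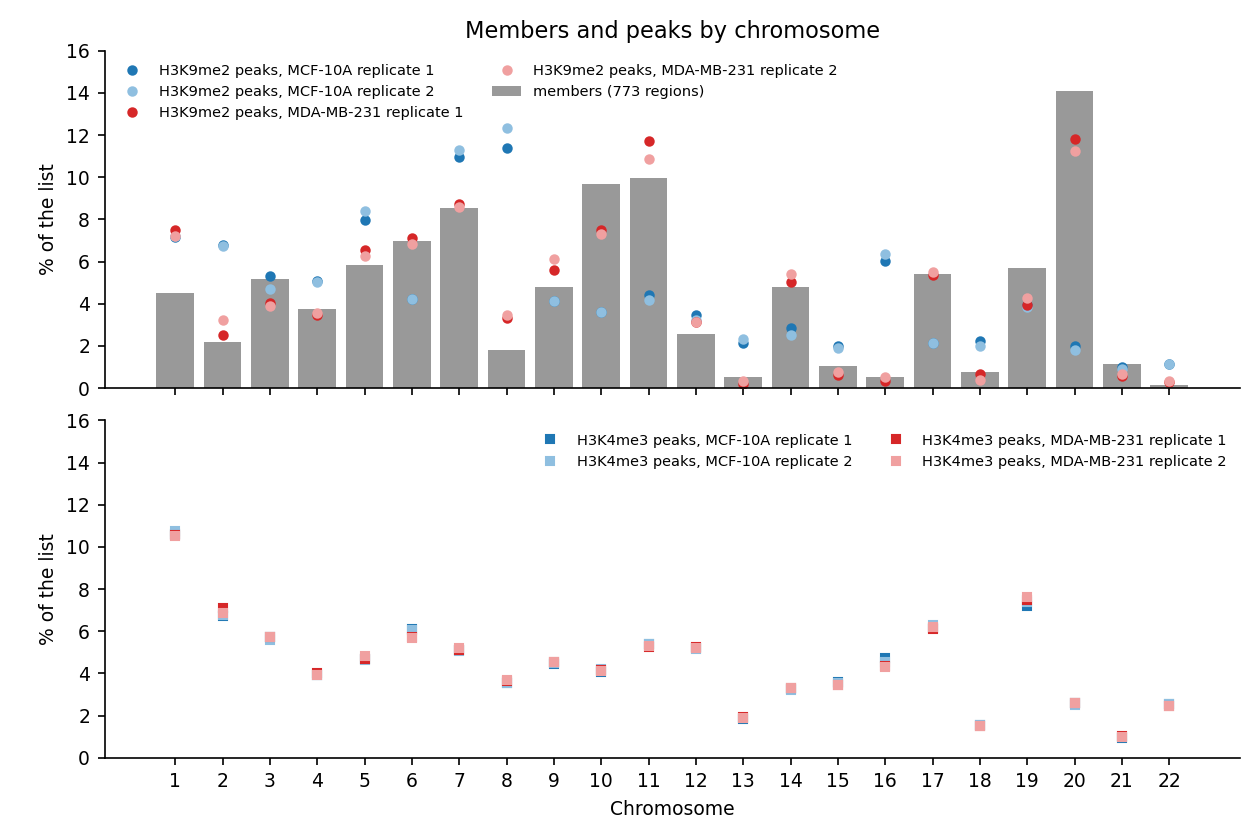
The upper panel gives the share of the 773 members on each autosome (bars) and of each library's H3K9me2 peaks (points), and the lower panel that of the H3K4me3 peaks, in percent of the list. Members and MDA-MB-231 H3K9me2 peaks stand high on chromosomes 20 (14.1% of members), 11 (9.96%) and 10 (9.70%), where the MCF-10A H3K9me2 shares are between 1.82% and 4.43%; the 4 H3K4me3 libraries nearly coincide on every autosome.

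Within chromosome 20, 17 members came before the longest peak-free stretch, which ran from 26190569 to 29506219, and 92 (84.4%) after it. So did 83.1% and 85.0% of the MDA-MB-231 H3K9me2 peaks of that chromosome, from which the members were drawn. For MCF-10A H3K9me2 the shares after it were 62.8% and 58.9%. For H3K27me3 they were 69.0% and 67.2% in MCF-10A and 84.4% and 81.3% in MDA-MB-231. For H3K4me3 they were 67.5% and 65.9% in MCF-10A and 67.1% and 65.9% in MDA-MB-231. In bins of 5 Mb the densest was chr20:55000001-60000000, with 31 members and 52 regions with H3K27me3. It held 191 and 158 H3K9me2 peaks in MDA-MB-231 and 33 and 25 in MCF-10A, but 21 and 21 H3K4me3 peaks in MDA-MB-231 and 22 and 23 in MCF-10A. The next bins were chr7:155000001-160000000 with 20 members, chr20:60000001-65000000 with 18 and chr6:40000001-45000000 with 17. The 10 densest of the 238 bins with any member held 164 of them (21.2%).

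Many members had a neighbour of their own kind. With members no more than 100 kb apart joined into runs, 397 of the 773 (51.4%) stood alone, 82 runs held a pair, and 49 runs held 3 or more, with 212 members between them. Of the 16 runs with at least 5 members, 6 were on chromosome 20. The largest, chr20:58122153-58396967, held 10 members in 274.8 kb. H3K9me2 peaks filled 33.1% and 24.0% of its length in MDA-MB-231 and 1.64% and 2.29% in MCF-10A. It was mixed with H3K27me3: 11 regions excluded for that mark lay among the members, and H3K27me3 covered 2.21% and 9.32% of the run in MDA-MB-231 and 4.84% and 7.05% in MCF-10A. No list had an H3K4me3 peak in it.

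The run at chr6:40006057-40348712 was cleaner. It held 9 members in 342.7 kb, the widest member among them, and 3 regions excluded for H3K27me3. H3K9me2 took up 24.8% and 18.8% of its length in MDA-MB-231, and neither MCF-10A list had a peak there. The share under H3K27me3 was 0.438% and 3.23% in MDA-MB-231 and 0% and 0.104% in MCF-10A. H3K4me3 was again listed at 0 in all 4 libraries.

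The run at chr19:36759921-36795320 was the most compact, with 9 members in 35.4 kb. MDA-MB-231 H3K9me2 peaks covered 91.0% and 98.0% of it, while MCF-10A H3K9me2, H3K27me3 of either line and H3K4me3 of either line were listed at 0. Its peaks came in narrow size classes: of the 24 MDA-MB-231 peaks in and just beyond it (11 in replicate 1 and 13 in replicate 2), 18 were 2264 to 2522 bp wide and 6 were 4918 to 5098 bp wide. Neighbouring members were 6 to 95 bp apart, except for a gap of 2547 bp that held a peak in replicate 2 alone. The stretch that follows was no member, since an MCF-10A peak of replicate 2, with a score of 53.10, reached into it. The sources used here do not say how reads that match several places in the genome were treated, and whether this bears on the regular widths was not tested.

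**Figure D3:**
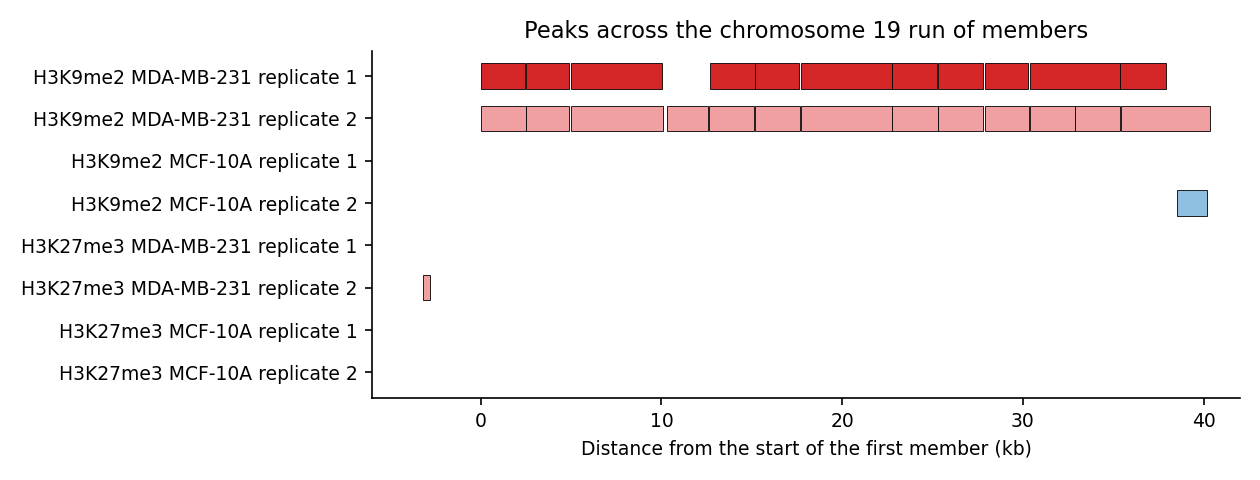
Peaks of the 8 H3K9me2 and H3K27me3 libraries in and beside the chromosome 19 run, 1 row per library, against the distance from the start of its first member in kb. The MDA-MB-231 H3K9me2 rows are filled by peaks of 2264 to 2522 bp and 4918 to 5098 bp set end to end, with 1 gap of 2688 bp between peaks in replicate 1, and the other rows are empty over the 35.4 kb of the run.

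In MCF-10A, a minority of the members were marked by H3K27me3. It overlapped 10.5% of them in replicate 1 and 10.2% in replicate 2, in both replicates 44 (5.69%, exact 95% Clopper-Pearson interval 4.17% to 7.57%), in a single replicate 72, and in neither 657. Such intervals cover counting error only and take regions as separate, although runs of members are neighbours. In both MCF-10A replicates H3K27me3 overlapped 219 of the 880 MDA-MB-231-only regions with H3K27me3 (24.9%), 168 of the 959 shared regions (17.5%) and 8.33% of all merged regions. Unlike the members, none of these classes was cleared of MDA-MB-231 H3K27me3, so the shares are not like for like. The share among the members rested on the long list: with the exclusion taken without MDA-MB-231 H3K27me3 replicate 2 it was 10.8%, and with the exclusion at 50% of the region 11.8%.

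The 44 members with MCF-10A H3K27me3 were thus called for H3K27me3 in that line and for H3K9me2 in MDA-MB-231. The highest-ranked were chr13:114319341-114321129, with H3K9me2 scores of 132.48 and 105.16 and MCF-10A H3K27me3 over 917 and 534 bp, chr19:42202932-42206274, with scores of 107.54 and 102.13 and H3K27me3 over 1007 and 1490 bp, and chr20:57875500-57878767, with scores of 125.37 and 97.03 and H3K27me3 over 483 and 1441 bp. In 26 of the 44 (59.1%) an MDA-MB-231 H3K27me3 peak lay within 10 kb, and so it did in 48 of the 72 with the mark in a single MCF-10A replicate (66.7%) and in 283 of the 657 with none (43.1%). These 3 groups were not compared by a test.

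H3K4me3 was nearly absent from the members themselves. Any of the 4 lists had a peak on 7 of the 773 (0.906%). Both MCF-10A replicates had one on 3 (0.388%, exact interval 0.0801% to 1.13%) and both MDA-MB-231 replicates on 2 (0.259%, 0.0313% to 0.931%), beside 1.77% and 1.53% of all merged regions and 1.56% and 1.25% of the shared ones. In the 880 MDA-MB-231-only regions with H3K27me3 the shares were 0.568% and 0.455%, within the intervals of the members. The clearest was chr9:68408343-68417756, with H3K4me3 over 1742 and 2559 bp in MCF-10A and none listed in MDA-MB-231. At chr10:135168574-135170749 the mark covered 365 and 131 bp, and at chr7:127807791-127811132 it touched 55 and 21 bp, both in MCF-10A alone. The latter also carried MCF-10A H3K27me3 over 2473 and 1186 bp. In the opposite direction, chr4:190641797-190644238 had H3K4me3 over 546 and 747 bp in MDA-MB-231 and none listed in MCF-10A. At chr6:29691884-29694122 it covered 180 and 296 bp in MDA-MB-231 and 230 and 0 bp in MCF-10A. The last 2, chr17:21221232-21226044 and chr20:29518023-29519164, had it in 1 replicate of each line.

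Farther out, more of the surroundings lay under H3K9me2 in MDA-MB-231 than in MCF-10A, which is a description, since the members were selected on that mark. From 10 to 50 kb away, H3K9me2 covered 6.94% and 4.71% of bases in MDA-MB-231 and 1.39% and 1.26% in MCF-10A. H3K27me3 covered 1.26% and 3.67% there in MDA-MB-231 and 1.87% and 1.95% in MCF-10A, so both MCF-10A libraries lay between the MDA-MB-231 replicates. Around the 880 regions with H3K27me3 all of these were higher, with 11.5% and 7.79% for MDA-MB-231 H3K9me2, 4.26% and 13.0% for MDA-MB-231 H3K27me3, and 4.83% and 4.98% for MCF-10A H3K27me3. H3K4me3 covered 0.604% and 0.692% of bases around the members in MCF-10A and 0.678% and 0.680% in MDA-MB-231, so the lines overlapped. Over the members themselves it covered less in all 4 lists, 0.143% and 0.132% of bases in MCF-10A and 0.0620% and 0.0578% in MDA-MB-231. Its median distance from a member was 111.0 and 105.3 kb in the MCF-10A lists and 123.9 and 124.0 kb in those of MDA-MB-231. Over all merged regions it was 99.9 to 108.1 kb. The 880 regions with H3K27me3 were close to the members, at 113.4 and 108.6 kb in MCF-10A and 122.6 and 121.4 kb in MDA-MB-231.

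**Figure D4:**
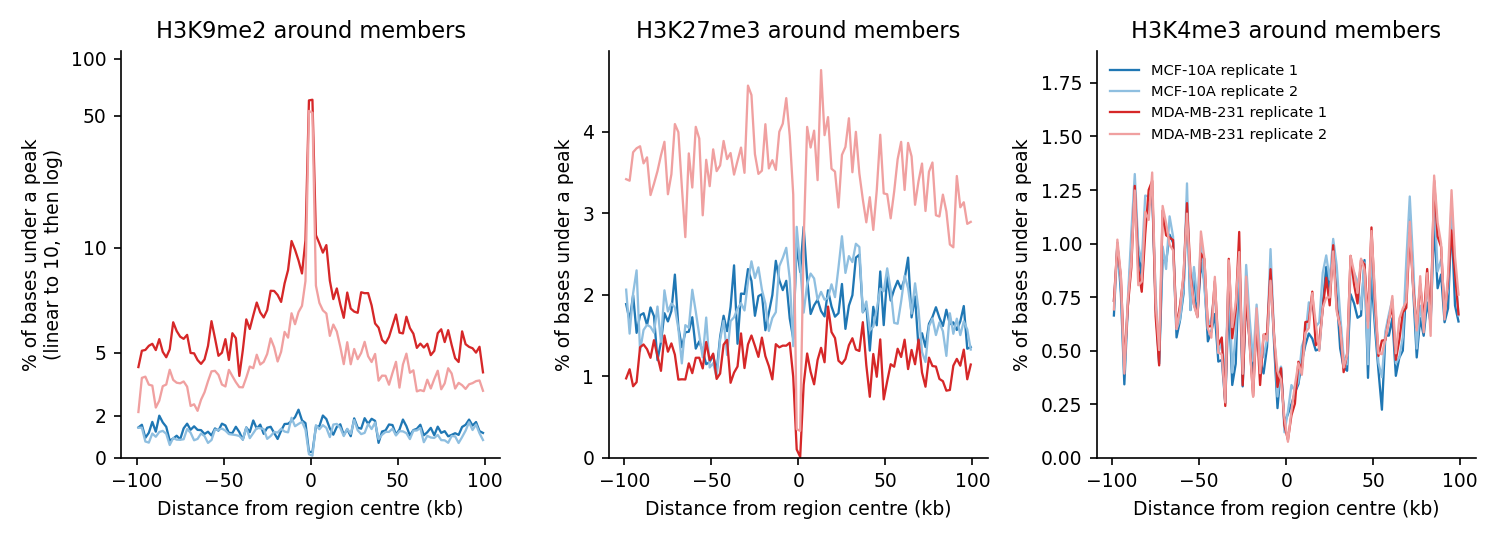
Percent of bases covered by peaks in 2-kb bins up to 100 kb from the members' centres, 1 panel per mark and 1 line per library; the H3K9me2 axis is linear up to 10% and logarithmic above. MDA-MB-231 H3K9me2 stays above both MCF-10A libraries across the flanks (6.94% and 4.71% against 1.39% and 1.26% at 10 to 50 kb), whereas the 4 H3K4me3 libraries lie together; the centre of the H3K9me2 panel and the MDA-MB-231 zero of the H3K27me3 panel are set by the rule.

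H3K4me3 near the members was then tested between the lines, since the rule did not use it. Covered bp in windows of 10 kb on each side of all 17981 regions were scaled to each library's total H3K4me3 coverage (bp per Mb) and tested with limma on log2 of the value plus 10, in windows where at least 2 of the 4 libraries had a peak. Only 70 of the 773 members (9.06%) had enough H3K4me3 to be tested, beside 9.88% of all regions, and the other 703 were not tested. Of the 70, H3K4me3 was higher in MDA-MB-231 around 11 (15.7%) and higher in MCF-10A around 15 (21.4%) at an adjusted p under 0.05. Over all 1776 windows tested, 10.7% were called higher in MDA-MB-231 and 13.7% higher in MCF-10A. The difference between these shares was not tested. Among the member calls, 10 of the 11 and 13 of the 15 were listed at 0 in the other line. Such windows entered the test only through the line where the mark was present and so had to differ, and their number supports nothing. Over all regions, 308 of the 434 windows called were of this kind. Also, 2 of the 11 windows shared the same H3K4me3 peaks, so the 11 stand for 10 separate stretches.

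Leaving out 1 library says little about these windows, since a window present in a single line then fails the filter of 2 libraries. Without either MCF-10A library, 2 of the 15 windows higher in MCF-10A were still tested and none was called by limma's adjusted p, while both had an unadjusted p under 0.05. Without either MDA-MB-231 library, 1 of the 11 higher in MDA-MB-231 was still tested. With the windows kept as with all 4 libraries, an alternative chosen after seeing the data, the 15 and the 11 all kept their direction. Most of them were listed at 0 in the other line and could not do otherwise. Fewer windows were called in each fit than with all libraries, among the members and over all windows alike. In both, the counts fell most when a library of the line with less H3K4me3 was left out. In such fits the lone sample of a line is assumed to vary like the pair of the other. Among the 47 tested windows with H3K4me3 in both lines, 3 were called and the median size of the log2 difference was 0.25. Over all regions, 126 of 1457 such windows (8.65%) were called. The member calls are thus mostly a list of places where 1 line had a peak and the other had none.

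The 3 windows with the smallest p among those higher in MCF-10A had no H3K4me3 peak in either MDA-MB-231 list, so their values are given as a description, without p-values. Around chr19:34294777-34297968 the H3K4me3 values were 134 and 135 bp per Mb in MCF-10A. Around chr7:127807791-127811132 they were 66.5 and 55.6, and around chr9:68408343-68417756 89.7 and 120. Both of the last regions also carried the mark within the H3K9me2 region itself.

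In the opposite direction, the 3 windows with the smallest p had no H3K4me3 peak in either MCF-10A list and are likewise described by their values. Around chr6:3224778-3226129 the MDA-MB-231 values were 54.8 and 45.0 bp per Mb. Around chr20:61287161-61289856 they were 39.2 and 49.0, and around chr20:45341820-45344461 34.3 and 30.3. In these places a promoter-type mark was called near H3K9me2 of the same line, in MDA-MB-231 only.

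The 3 called windows with H3K4me3 in both lines had smaller differences and lost the call under some settings. Around chr7:144059444-144065129, the highest-ranked member, the values were 92.6 and 79.2 bp per Mb in MCF-10A and 55.7 and 58.2 in MDA-MB-231, a log2 difference of -0.51 (SE 0.102, limma adjusted p = 0.0419, range over 15 alternative settings 0.0229 to 0.240). Around chr11:124742120-124745233 they were 95.8 and 94.9 in MCF-10A and 60.8 and 44.2 in MDA-MB-231, a log2 difference of -0.77 (SE 0.158, adjusted p = 0.0460, range 0.00220 to 0.304). Around chr6:39889943-39891986 the order was the opposite, with 5.56 and 7.46 in MCF-10A and 16.5 and 22.4 in MDA-MB-231, a log2 difference of 0.83 (SE 0.175, adjusted p = 0.0486, range 0.0281 to 0.507). At each of the 3, the replicates of the lines did not overlap.

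**Figure D5:**
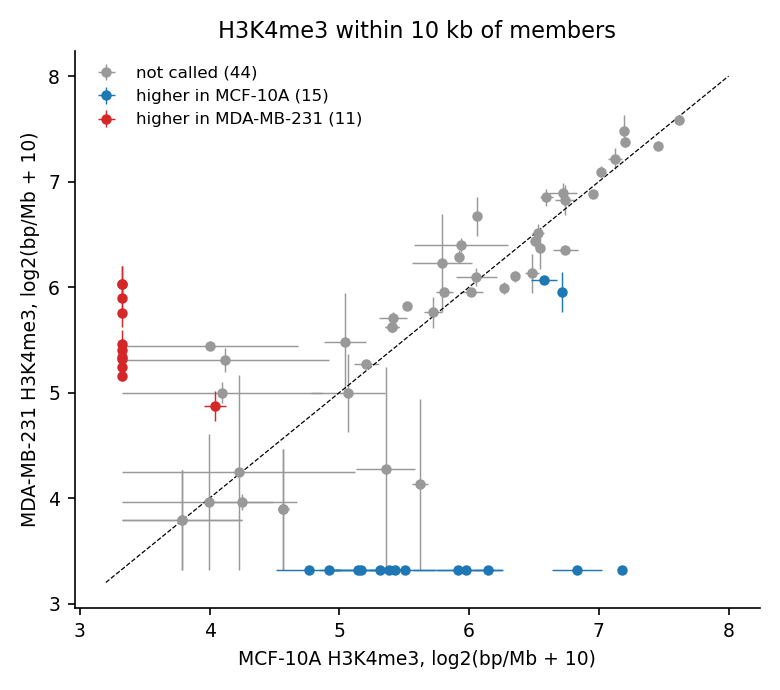
H3K4me3 in windows of 10 kb on each side of the 70 tested members, as log2 of bp per Mb of library coverage plus 10, MCF-10A across and MDA-MB-231 up; points are means and bars run from the lower to the higher of the 2 replicates; colours mark the 11 windows higher in MDA-MB-231 and the 15 higher in MCF-10A at limma's adjusted p under 0.05. Most called windows lie along the lower or left edge, which stands for 0 in the other line, and most of the 47 windows with the mark in both lines lie near the dashed line of equality.

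Summed over the members' windows (676 after merging those that overlap, 16.3 Mb in all), H3K4me3 came to 3426 and 3437 bp per Mb in MCF-10A (mean 3431 ± 7.74, SD, n = 2) and 3215 and 3180 in MDA-MB-231 (3198 ± 24.8, SD, n = 2). On this scale the lines did not overlap, and the log2 ratio was -0.10. A two-sided exact permutation test gave p = 0.333, the smallest that 2 against 2 allows. Without the scaling, the coverage was 66514 and 73219 bp in MCF-10A and 67411 and 66900 bp in MDA-MB-231, the lines overlapped, and the log2 ratio was -0.057 (exact p = 1). With windows of 50 kb on each side the log2 ratio was 0.0079 and the lines overlapped (exact p = 1).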

How the data were processed

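Peak lists of H3K9me2, H3K27me3 and H3K4me3 from MCF-10A and MDA-MB-231 (2 replicates each, 12 lists) were used as deposited, 1 list per replicate. Positions are on hg19 and the tools used were bedtools, MACS 1.4, Bowtie2 and CASAVA 1.6, per the submitters' processing notes, which give no roles or settings. Each deposited list gives a score per peak. This is the authors' value, its scale is not stated, and it served for ranking and filtering inside each list alone. Read counts are not part of the lists and the depth is unknown. Peaks on the 22 autosomes were used.

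Regions, distances, coverage and figures were computed with Python 3.11.15, NumPy 2.4.6, pandas 2.3.3, SciPy 1.17.1 and matplotlib 3.10.9. The labels gave each sample's mark and line. H3K4me3 windows were tested with limma 3.58.1 in R 4.3.3 (trend, empirical Bayes, no covariates, Benjamini-Hochberg adjustment over all windows, pseudocount 10 bp per Mb), which understates differences of low windows. On simulated windows the test recovered 70.1%, 91.0% and 97.0% of log2 changes of 1, 2 and 5, and 4.97% of its calls were false. The simulation drew normal noise around each window's mean over the libraries and held no windows fixed at 0 in a line. Of the 434 windows called in the data 308 were of that kind, so these rates do not describe them. Summed coverage was compared by exact permutation. Regions were named by a fixed rule: the 10 with the highest minimum of both score percentiles, the 5 widest, the smallest limma p values, the highest-ranked with H3K4me3 or MCF-10A H3K27me3, the 3 largest runs, and the nearest on each side of the exclusion. The other H3K4me3-bearing regions, the densest bins and the 3 windows called with the mark in both lines were named after their values were seen. The members and lists were chosen with earlier results of these data known. Genes and sequences were not used here, since no annotation of hg19 was at hand.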

Additional observations from a re-analysis of the deposited data

Results flagged for a closer look

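Chromosome X lay outside the rule, which takes autosomes. Of its 346 merged H3K9me2 regions, 15 met the same peak criteria, with H3K9me2 in both MDA-MB-231 replicates, none in MCF-10A and no MDA-MB-231 H3K27me3, beside 4 MDA-MB-231-only regions with H3K27me3.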

How the results depend on the processing

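The number of regions was 115 with H3K9me2 and H3K27me3 peaks of a score of at least 100 (overlapping 36 of the 773), 1334 with the exclusion at 50% of the region, 2764 with a peak in either MDA-MB-231 replicate, and 815 to 2037 when 1 list was left out. It was 696 when peaks up to 1 kb apart were merged, 788 with chromosome X and 820 with lists of equal length. The shares of regions with H3K4me3 stayed inside their exact intervals under all 12 alternatives. These intervals are wide, since they rest on 3 members for MCF-10A and 2 for MDA-MB-231, so this does not show that the shares are stable. They ran from 0.25% to 0.87% in MCF-10A (0.388% in the main setting) and from 0.12% to 0.87% in MDA-MB-231 (0.259%). With windows of 50 kb on each side, 268 members were tested, in place of 70. Of these, 43 had H3K4me3 higher in MDA-MB-231 and 40 higher in MCF-10A. Over all 5857 windows tested at that size the counts were 677 and 782, and the difference in shares was not tested. The log2 ratio of summed H3K4me3 turned to 0.0079. Leaving out 1 H3K4me3 library gave 1 to 4 windows higher in MDA-MB-231 and 0 to 14 higher in MCF-10A, where windows of a single line drop out of the test, and a log2 ratio of -0.11 to -0.09. With the windows kept, an alternative chosen after seeing the data, the counts were 3 and 4 (without MCF-10A replicate 1 or 2) or 10 higher in MDA-MB-231, and 5 and 7 (without MDA-MB-231 replicate 1 or 2) or 13 higher in MCF-10A. Other causes of these shifts were not tested. The other pseudocounts, no filter, unscaled coverage and H3K4me3 scores of at least 100 gave 10 or 11 and 11 to 15 windows.

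With the replicate number as a replicate block, 11 and 14 windows were called. Deviations of same-numbered H3K4me3 libraries correlated at 0.215 over 1776 windows, but with 2 pairs the numbers were not taken to pair the samples. Depth is unknown, so a region without a peak may lie below the authors' threshold.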
